A study of Mus musculus with 12 samples.

Results

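The genes of the EGFR family were followed in RNA-seq data of mouse colonic crypts. The family was taken as 10 genes, the receptors Egfr, Erbb2, Erbb3 and Erbb4 and the ligands Areg, Ereg, Tgfa, Hbegf, Btc and Epgn, picked by symbol from the 55471 genes of the deposited table and not by their values. Of the 10, 8 passed the filter on low counts and were among the 14610 genes tested, whereas Erbb4 and Epgn did not pass and are given as read counts. Crypts came from 12 female C57BL/6J mice, 8 weeks old, with 1 library per mouse and 3 mice in each of 4 groups. The groups are CBPWTp53-floxed, CBPAAp53-floxed, CBPWTp53ΔIEC and CBPAAp53ΔIEC, for which the sample titles write WT, AA, p53koWT and p53koAA. CBPAA is a germline knock-in present in every cell of the mouse, in which phosphorylated serines of CBP, the CREB-binding protein encoded by Crebbp, are alanines. In p53ΔIEC mice a Villin-driven Cre removes the floxed p53 gene (Trp53) from intestinal epithelial cells only, and p53-floxed mice carry the same floxed alleles without Cre. All 4 groups therefore carry floxed Trp53. Crypts were released from the tissue with EDTA, no treatment was given, and cells other than epithelium were not sorted out.

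EGFR family receptors sit in the plasma membrane and work in pairs. EGFR binds EGF, TGF-α, amphiregulin, epigen, HB-EGF, betacellulin and epiregulin, and HB-EGF, betacellulin and epiregulin also bind ERBB4. ERBB2 has no known ligand and serves as the favoured partner of the others, and ERBB3 binds neuregulins but has a weak kinase and signals through its partner. The ligands are made as membrane-anchored precursors that proteases of the ADAM family release. In the gut, EGF is a standard component of organoid medium, and the pathway drives proliferation in the lower crypt through RAS and ERK. The study itself is about versican, a matrix proteoglycan that has EGF-like repeats, and it treated organoids with an EGFR inhibitor. The question here was whether the receptors and ligands were expressed in these crypts and whether their RNA differed with CBP genotype or p53 deletion.

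Epgn, Ereg, Areg and Btc lie side by side on chromosome 5 of GRCm38, from 91027464 to 91402994, and are the 4 protein-coding genes annotated within these 375.5 kb. Epgn spans 91027464 to 91035215, Ereg 91074622 to 91093646 and Areg 91139599 to 91148432, all on the plus strand, and Btc spans 91357261 to 91402994 on the minus strand. The 250 bases before the RefSeq start of Btc and of Areg (GRCm38.p6) are printed because Btc was the member that passed the test on p53 deletion and Areg is its nearest neighbour in the cluster, with a fitted change of the other sign in the same comparison. Both are written 5′ to 3′ on the strand of the gene, and capitals mark the CRE (cAMP response element) motif TGACGTCA, the sequence that CREB binds.
Btc, chr5:91402995-91403244, minus strand: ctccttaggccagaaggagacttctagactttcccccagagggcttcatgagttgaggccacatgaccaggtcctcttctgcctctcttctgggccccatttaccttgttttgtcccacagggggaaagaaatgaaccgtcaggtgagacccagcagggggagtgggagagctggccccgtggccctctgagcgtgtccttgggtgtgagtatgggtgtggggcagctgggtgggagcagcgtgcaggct
Areg, chr5:91139349-91139598, plus strand: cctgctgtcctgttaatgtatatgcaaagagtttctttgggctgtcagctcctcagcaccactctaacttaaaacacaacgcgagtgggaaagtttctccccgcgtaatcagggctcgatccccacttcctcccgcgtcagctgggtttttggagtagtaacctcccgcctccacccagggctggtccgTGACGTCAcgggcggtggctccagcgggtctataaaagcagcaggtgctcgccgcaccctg
The capitals in Areg begin 61 bases before its start. Motifs were searched on both strands in the upstream sequences of the 7 members found in the RefSeq table. The CRE motif was found in Areg alone among these 7, the AP-1 motif TGANTCA in none and the p53 decamer motif in none. Over 32851 promoters of the same length, 1.55% held the CRE motif, 6.75% the AP-1 motif and 7.13% the p53 decamer. A match of letters is a description and no measure of binding.

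The remaining receptors and Tgfa lie apart from this cluster. Egfr is on chromosome 11 from 16752203 to 16918158 and Erbb2 on the same chromosome from 98412470 to 98437716, Erbb3 is on chromosome 10 from 128567523 to 128589652, Erbb4 on chromosome 1 from 68032186 to 69108059 and Tgfa on chromosome 6 from 86195223 to 86275719. Erbb2 overlaps the protein-coding gene Mien1, Egfr overlaps the antisense gene Egfros and Ereg overlaps the antisense gene Gm19610, each on the opposite strand. The labels name a stranded library kit and the study's methods a kit not described as stranded, and the strand setting of the counting is not given in the sources used here, so reads of these pairs may not be told apart.

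The libraries held between 11177430 and 18029125 reads counted on genes. Trp53 was 23.3 to 33.5 TPM in the p53-floxed and 3.26 to 6.13 TPM in the p53ΔIEC libraries, without overlap. Crebbp was 9.54 ± 1.73 TPM in CBPWTp53-floxed and 8.02 ± 1.48 TPM in CBPAAp53-floxed (SD, n = 3 each). It was 7.75 ± 1.86 TPM in CBPWTp53ΔIEC and 9.30 ± 0.915 TPM in CBPAAp53ΔIEC (SD, n = 3 each), and the ranges of the 4 groups overlapped. TPM scales reads to gene length and library size. The 10 epithelial markers summed to 17054 to 24523 TPM. Of the 12 fibroblast and muscle markers, summed at 4.24 to 8.36 TPM, collagens and Dcn were at or near 0 and Vim and Pdgfrb made up nearly the whole sum. Of the 2 tested, Pdgfrb was called lower in CBPWTp53ΔIEC vs. CBPWTp53-floxed and in the p53ΔIEC average over CBP genotypes, and its part in the differences given here was not tested. The 16 leukocyte markers summed to 29.1 to 52.5 TPM, of which Kit, also found in goblet-lineage epithelium, was 34.1 TPM on average and Ptprc 0.875 TPM. The 7 endothelial markers summed to 2.84 to 5.85 TPM. Lyz1, a product of small-intestinal Paneth cells, was over 100 TPM in 4 libraries labelled colonic crypts and at most 13.7 TPM in the others. The 4 are CBPWTp53ΔIEC replicate 1 (2281 TPM), CBPAAp53ΔIEC replicates 3 (789 TPM) and 1 (410 TPM), and CBPAAp53-floxed replicate 2 (123 TPM).

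Receptor RNA was mainly that of Erbb3 and Erbb2. Erbb3 stood at 205 ± 47.2 TPM (SD, n = 12) and ranged from 139 to 276 TPM, at percentile 96.1 of the mean TPM of all genes tested. Erbb2 stood at 127.02 ± 17.6 TPM (SD, n = 12) and ranged from 102 to 155 TPM. Egfr, the receptor that all the ligands followed here bind, was far lower at 8.70 ± 1.81 TPM (SD, n = 12), with a range of 6.04 to 12.1 TPM. Erbb3 exceeded Erbb2 in 12 of 12 libraries and exceeded Egfr by 14.3 to 32.7 times, and Erbb2 and Erbb3 together made up 96.2 to 98.2% of the summed TPM of the 4 receptors. Erbb4, a receptor for betacellulin, epiregulin, HB-EGF and neuregulins, had 2 reads in all 12 libraries together, 1 in CBPWTp53ΔIEC replicate 2 and 1 in CBPAAp53ΔIEC replicate 2. A count of 0 in a library allows up to 3 reads, which is 0.167 to 0.280 CPM (reads scaled to library size) at these depths, for counting error only, so Erbb4 was not detectable at this depth in 10 libraries. In such bulk RNA, fewer cells of a type and less RNA per cell cannot be told apart.

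Among the ligands, Tgfa was the highest in every library. It stood at 21.8 ± 3.00 TPM (SD, n = 12), varied between 17.6 and 26.5 TPM and made up 34.7 to 57.2% of the summed TPM of the 6 ligands. Hbegf followed at 11.7 ± 3.77 TPM, Areg at 8.51 ± 3.91 TPM and Btc at 4.55 ± 0.953 TPM (SD, n = 12 each). Ereg was low at 0.854 ± 0.452 TPM (SD, n = 12), from 10 to 42 reads per library, and stood at percentile 6.69 of the genes tested. Epgn had 18 reads in all, 0 to 6 per library, with at least 1 read in 8 libraries. The spread over the 12 libraries was widest for Ereg (a coefficient of variation of 52.9%) and Areg (45.9%) among the 8 members tested, and narrowest for Tgfa (13.8%) and Erbb2 (13.9%).

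The order of mean TPM was Erbb3, Erbb2, Tgfa, Hbegf, Egfr, Areg, Btc, Ereg, Epgn and Erbb4. In 12 of 12 libraries Erbb3 exceeded Erbb2, Erbb2 exceeded Tgfa, Tgfa exceeded Hbegf, Btc exceeded Ereg and Ereg exceeded Epgn. Egfr and Areg could not be ordered, since Egfr was the higher in 6 of 12 libraries. Hbegf was above Egfr in 11 and above Areg in 10 libraries, and Areg was above Btc in 9. The plot of TPM by library shows these levels and their spread in each group.

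**Figure D1:**
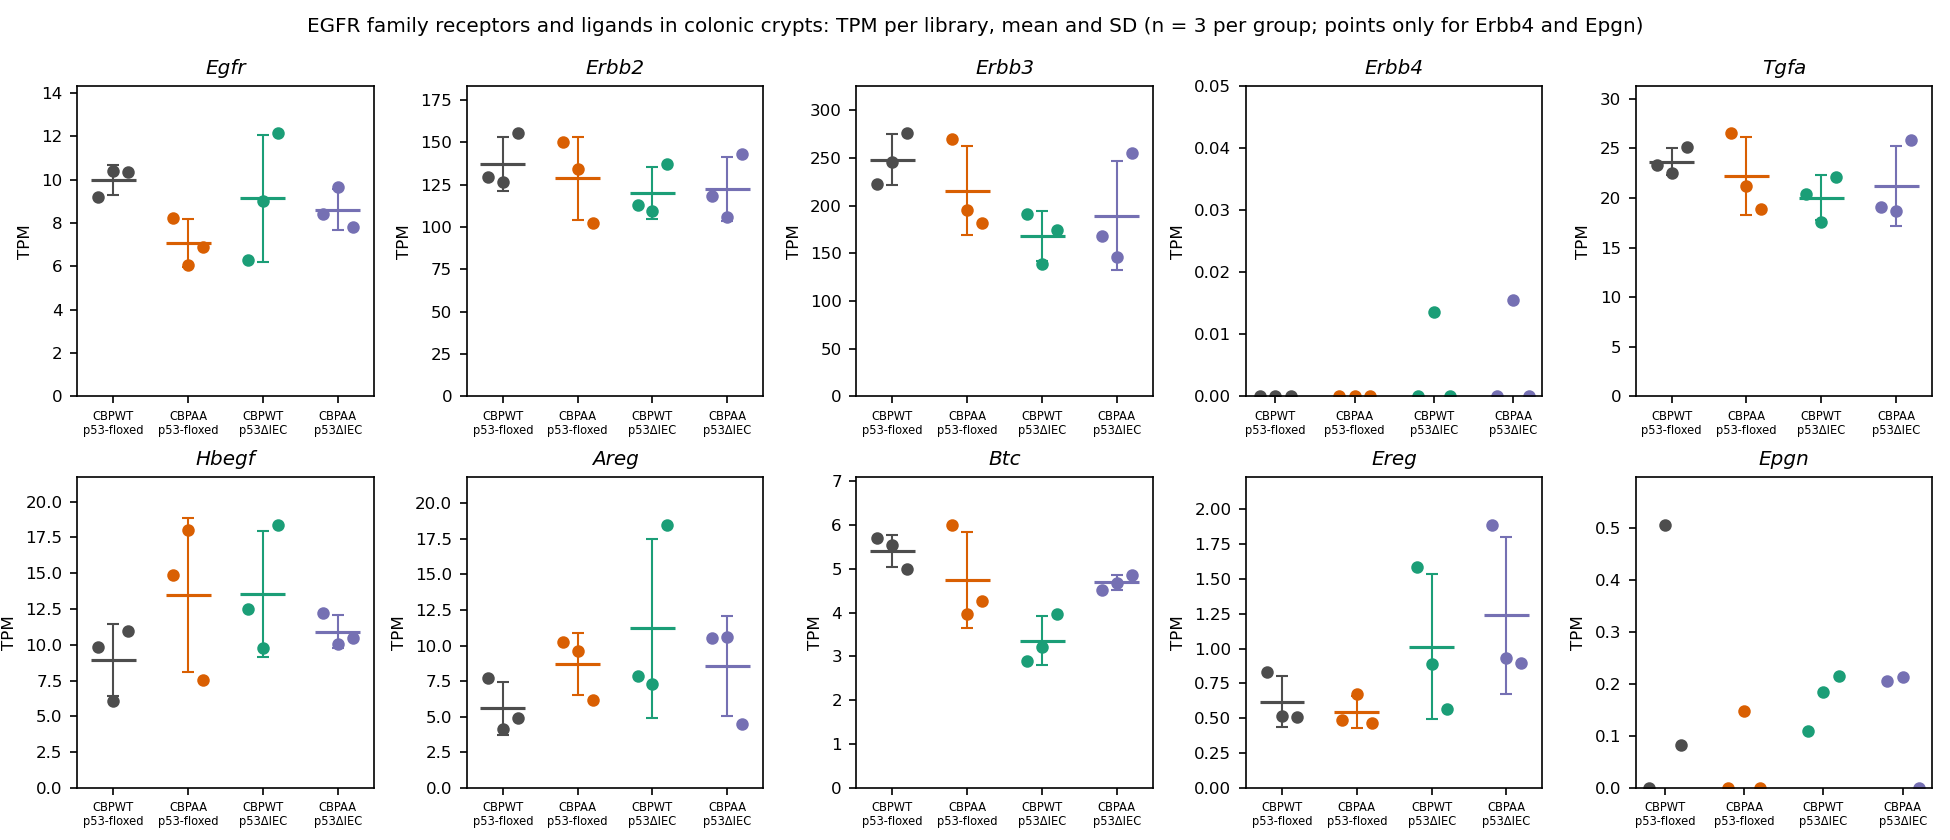
Each panel plots 1 member on a linear TPM axis that starts at 0, with 1 point per mouse, a line at the group mean and bars of 1 SD (n = 3 per group), and only points for Erbb4 and Epgn, which have few or no reads. Erbb3 and Erbb2 stand above 100 TPM in every library, and the Btc points of CBPWTp53ΔIEC lie below those of CBPWTp53-floxed.

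CBP genotype was compared first with p53 present. In CBPAAp53-floxed vs. CBPWTp53-floxed crypts, 0 of the 8 members were called by edgeR, against a background of 0 percent of the 14610 genes. A call needed an adjusted p under 0.05 (Benjamini-Hochberg over all genes tested) with a log2 fold change over 0.5 in size. DESeq2 also called 0 of the 8 members, and it called 33 of 27142 genes. An unadjusted p under 0.05 was found for 2 members and for 8.04% of all genes (1174). The median log2 fold change of the 8 members was 0.01, that of all genes 0.01.

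The 2 members were Egfr and Hbegf. Egfr was 9.19, 10.4 and 10.3 TPM in CBPWTp53-floxed and 8.25, 6.04 and 6.91 TPM in CBPAAp53-floxed replicates 1 to 3. The groups did not overlap, with each CBPAAp53-floxed library below each control. On CPM, groups without overlap in either direction were found for 1 of the 8 members and for 19.4% of all genes. For Egfr the fitted log2 fold change was -0.38 (SE 0.13, 95% CI -0.66 to -0.09, adjusted p = 0.618). Hbegf, a heparin-binding ligand, was 9.82, 6.10 and 10.9 TPM in CBPWTp53-floxed and 14.8, 18.0 and 7.52 TPM in CBPAAp53-floxed. Its groups overlapped, since CBPAAp53-floxed replicate 3 lay within the range of the controls. This gave Hbegf a log2 fold change of 0.71 (SE 0.29, 95% CI 0.08 to 1.33, adjusted p = 0.618), which ran from 0.40 to 0.95 with 1 library left out. The highest Hbegf and the lowest Egfr of this comparison were both in CBPAAp53-floxed replicate 2, a Lyz1-rich library. Without the 4 such libraries the log2 fold change was 0.41 for Hbegf (adjusted p = 0.766) and -0.29 for Egfr (adjusted p = 0.275). Areg had 7.70, 4.15 and 4.93 TPM in CBPWTp53-floxed and 10.3, 9.65 and 6.20 TPM in CBPAAp53-floxed, also with overlap, and a log2 fold change of 0.77 (SE 0.38, adjusted p = 0.618). Btc, Tgfa, Erbb2 and Erbb3 had fitted changes of -0.09 to 0.03, and the 95% CI of Erbb2 ran from -0.28 to 0.33 and that of Tgfa from -0.31 to 0.35.

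With p53 deleted, CBPAAp53ΔIEC vs. CBPWTp53ΔIEC crypts also gave 0 of 8 members called (background 0.00684%, 1 gene). DESeq2 called 0 members and 1 of 27142 genes. An unadjusted p under 0.05 was found for 1 member and 3.57% of all genes. That member was Btc, a ligand of both EGFR and ERBB4. Btc was 2.90, 3.21 and 3.97 TPM in CBPWTp53ΔIEC and 4.52, 4.68 and 4.87 TPM in CBPAAp53ΔIEC. The groups did not overlap, as for 9.26% of all genes on CPM. The log2 fold change of Btc was 0.44 (SE 0.16, 95% CI 0.10 to 0.79), with an adjusted p of 0.985. Averaged over both p53 states, CBPAA minus CBPWT gave 0 calls among the 8 members (background 0.00684%). DESeq2 called 0 members and 5 of 27142 genes in this average. An unadjusted p under 0.05 was found for 1 member and 2.57% of all genes. The member was Egfr, with a log2 fold change of -0.24 (SE 0.09, 95% CI -0.44 to -0.04, adjusted p = 1.00). In this average the 95% CI was -0.21 to 0.22 for Erbb2, -0.34 to 0.35 for Erbb3 and -0.21 to 0.26 for Tgfa.

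Deletion of p53 in CBPWT mice was the comparison with a call. In CBPWTp53ΔIEC vs. CBPWTp53-floxed crypts, 1 of the 8 members passed, Btc, which was lower, against 3.15% of all genes (460 of 14610). That background changed when 1 library was left out, which leaves 2 mice in its group. Without CBPWTp53-floxed replicate 1, 2 or 3 it was 7, 2 and 1 genes. Without CBPWTp53ΔIEC replicate 2 or 3 it was 7 and 4 genes. It was 253 without CBPAAp53-floxed replicate 3, 735 without CBPAAp53ΔIEC replicate 3 and 906 without CBPWTp53ΔIEC replicate 1. An unadjusted p under 0.05 was found for 3 members and for 20.9% of all genes. Btc was 5.70, 5.54 and 5.00 TPM in CBPWTp53-floxed replicates 1 to 3, from 113, 164 and 151 reads. It was 2.90, 3.21 and 3.97 TPM in CBPWTp53ΔIEC replicates 1 to 3, from 66, 87 and 92 reads. Each p53ΔIEC library lay below each control. On CPM the 2 groups did not overlap, in either direction, for 30.8% of all genes and for 1 of the 8 members. The log2 fold change of Btc was -0.66 (SE 0.16, 95% CI -1.004 to -0.32), 0.633-fold, with an adjusted p of 0.0418 in edgeR and 0.0101 in DESeq2. In this comparison DESeq2 called 863 of 27142 genes. The edgeR call of Btc lay close to the threshold. Its adjusted p was 0.0670 with no filter on low counts, and with 1 library left out it ranged from 0.0305 to 0.154, over 0.05 without any 1 of the CBPWTp53-floxed replicates, CBPWTp53ΔIEC replicate 2 or 3, CBPAAp53-floxed replicate 3 or CBPAAp53ΔIEC replicate 1 or 2. The log2 fold change itself stayed between -0.74 and -0.61.

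In CBPAA mice the difference in Btc on p53 deletion was smaller than the spread between mice. Btc was 6.00, 3.98 and 4.28 TPM in CBPAAp53-floxed and 4.52, 4.68 and 4.87 TPM in CBPAAp53ΔIEC, and all 3 of the latter lay inside the range of the former. Here the log2 fold change was -0.14 (SE 0.16, 95% CI -0.48 to 0.20, adjusted p = 0.730). The difference between both effects, tested as an interaction term, was 0.52 (SE 0.22, 95% CI 0.04 to 1.01) with an adjusted p of 0.482, so the effect of p53 deletion on Btc was not shown to differ between CBP genotypes. Averaged over both genotypes the log2 fold change of Btc was -0.40 (SE 0.11, adjusted p = 0.0593).

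Other ligands had higher means in CBPWTp53ΔIEC crypts without passing the test. Areg was 7.84, 7.29 and 18.5 TPM in CBPWTp53ΔIEC, against 7.70, 4.15 and 4.93 TPM in CBPWTp53-floxed. Replicate 3 stood far above all other libraries, and replicate 2 lay below the highest control. The log2 fold change of Areg was 1.01 (SE 0.38, 95% CI 0.20 to 1.82, adjusted p = 0.150), and it ranged from 0.60 (without CBPWTp53ΔIEC replicate 3) to 1.30 with 1 library left out. Hbegf was 12.5, 9.74 and 18.4 TPM in CBPWTp53ΔIEC, with the same replicate highest, and its log2 fold change was 0.63 (SE 0.29, adjusted p = 0.241), or 0.41 without CBPWTp53-floxed replicate 2. In CBPAA mice the fitted p53 effect was -0.16 for Areg and -0.42 for Hbegf, and the interaction was -1.17 for Areg (SE 0.53) and -1.05 for Hbegf (SE 0.41), each with an adjusted p of 0.482. No member was called in the interaction (0 of 8, background 0.00684%), where 3 members and 10.3% of all genes had an unadjusted p under 0.05. DESeq2 called 0 members and 30 of 27142 genes in the interaction.

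Ereg, a low-level ligand, was higher on average with p53 deleted in both CBP genotypes, without passing the test. Ereg was 0.829, 0.518 and 0.508 TPM in CBPWTp53-floxed and 0.487, 0.677 and 0.468 TPM in CBPAAp53-floxed. It was 1.59, 0.890 and 0.568 TPM in CBPWTp53ΔIEC and 1.89, 0.932 and 0.895 TPM in CBPAAp53ΔIEC, where each library stood above each CBPAAp53-floxed library. On CPM, separation in either direction was seen for 1 of 8 members and 15.0% of all genes. The log2 fold change of Ereg was 1.02 in CBPAA mice (SE 0.47, 95% CI -0.002 to 2.04, adjusted p = 0.399) and 0.92 averaged over both genotypes (SE 0.34, adjusted p = 0.134). The highest Ereg values, 1.89 and 1.59 TPM, belonged to libraries over 100 TPM of Lyz1. With the 4 such libraries left out, the averaged log2 fold change was 0.51 (adjusted p = 0.302), in CBPAA mice it was 0.82 (adjusted p = 0.410) and in CBPWT mice 0.21 in place of 0.83. With 1 library left out it ran from 0.60 (without CBPAAp53ΔIEC replicate 1) to 1.23 in CBPAA mice and from 0.20 (without CBPWTp53ΔIEC replicate 1) to 1.19 in CBPWT mice. The part of small-intestinal material in the Ereg difference was not tested beyond this.

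In CBPAAp53ΔIEC vs. CBPAAp53-floxed crypts 0 of 8 members were called by edgeR (background 0.0274%, 4 genes) and 0 by DESeq2 (73 of 27142 genes). Of the 8 members, 0 had an unadjusted p under 0.05, against 12.6% of all genes. Without CBPAAp53ΔIEC replicate 3 the edgeR background was 326 genes in place of 4, and it was 1 to 4 without any other 1 library. Averaged over both genotypes p53 deletion gave 0 calls by edgeR (background 3.50%, 511 genes) and 0 by DESeq2 (761 of 27142 genes). The edgeR background was 1073 genes without CBPWTp53ΔIEC replicate 1, 971 without CBPAAp53ΔIEC replicate 3 and 542 without CBPAAp53-floxed replicate 2. It was 105 to 304 without any other 1 library, lowest without CBPWTp53-floxed replicate 3. In this average 3 members, Btc, Ereg and Erbb3, had an unadjusted p under 0.05, as did 21.9% of all genes. The plot of log2 fold changes shows all 8 tested members in the 4 pairwise comparisons, of which those with a group in common are not independent.

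**Figure D2:**
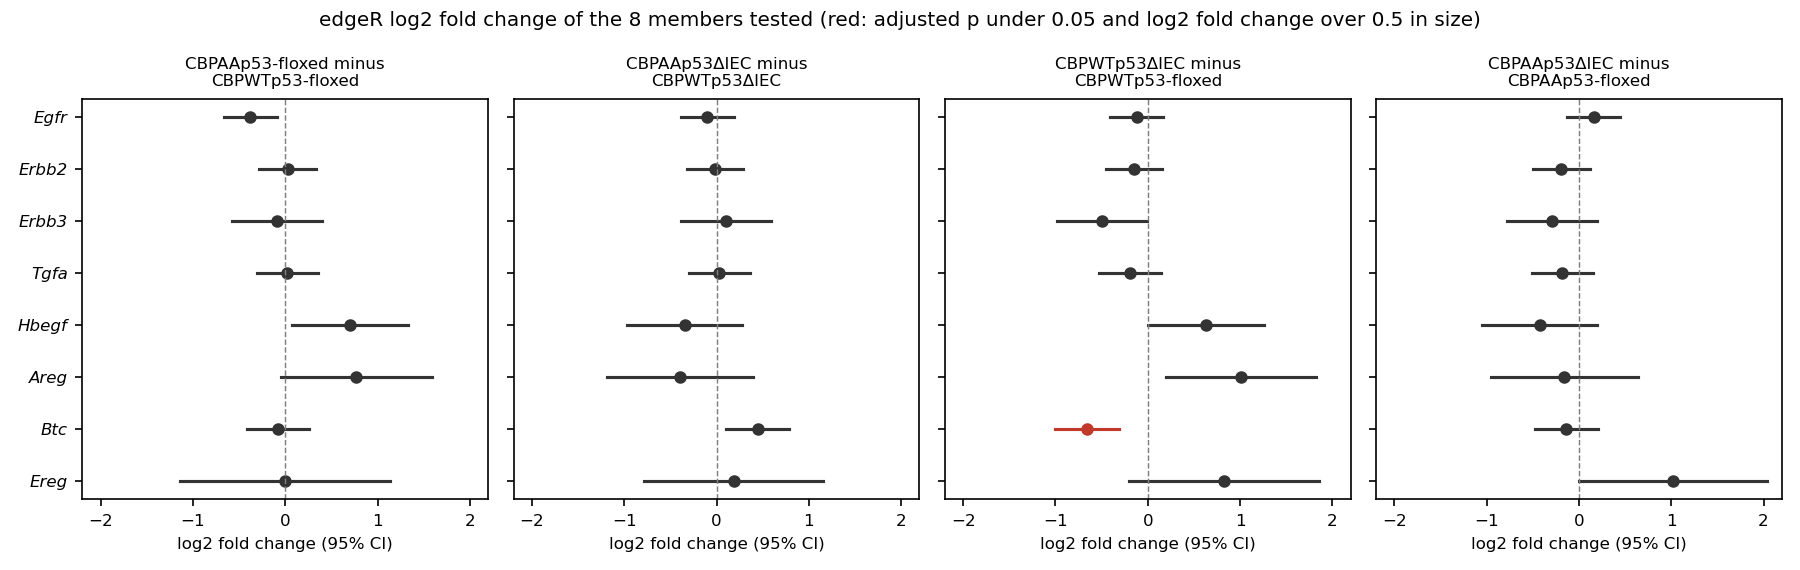
Each panel is 1 pairwise comparison, with the edgeR log2 fold change of each tested member on the horizontal axis as a point and its 95% CI as a line, red where the adjusted p was under 0.05 and the log2 fold change over 0.5 in size. Btc in CBPWTp53ΔIEC minus CBPWTp53-floxed, at -0.66, is the red member.

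The call of Erbb3, like that of Btc, depended on which libraries were kept. Erbb3 was 223, 246 and 276 TPM in CBPWTp53-floxed and 191, 139 and 174 TPM in CBPWTp53ΔIEC replicates 1 to 3, with no overlap on this scale. It was 269, 196 and 182 TPM in CBPAAp53-floxed and 168, 146 and 255 TPM in CBPAAp53ΔIEC, where replicate 3 stood near the highest p53-floxed library. On TMM-scaled CPM the CBPWT groups overlapped. For Erbb3 the fitted value was -0.49 in CBPWT mice (SE 0.23, 95% CI -0.98 to -0.005, adjusted p = 0.235), -0.30 in CBPAA mice (SE 0.23, adjusted p = 0.577) and -0.40 averaged (SE 0.16, 95% CI -0.74 to -0.05, adjusted p = 0.171). Without CBPWTp53ΔIEC replicate 1 the CBPWT value was -0.76 (adjusted p = 0.0490; 6.06% of genes called) and the average -0.53 (adjusted p = 0.0275; 7.18% called). Without CBPAAp53ΔIEC replicate 3 the average was -0.55 (adjusted p = 0.0197; 6.52% called).

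With all 4 libraries over 100 TPM of Lyz1 left out, Erbb3 fell by 0.76 on the log2 scale in CBPWT mice (adjusted p = 0.000139; 11.4% of genes called), by 0.75 in CBPAA mice (adjusted p = 0.00574; 6.92% called) and by 0.76 averaged (adjusted p = 2.52e-05; 11.1% called). This fit kept 3 CBPWTp53-floxed, 2 CBPAAp53-floxed, 2 CBPWTp53ΔIEC and 1 CBPAAp53ΔIEC library, so the lone library is assumed to vary like the others. Erbb3 then ranged from 182 to 276 TPM in 5 p53-floxed and from 139 to 174 TPM in 3 p53ΔIEC libraries. In the same fit, averaged over CBP genotypes, Tgfa had a log2 fold change of -0.38 (adjusted p = 0.00260) and Erbb2 of -0.31 (adjusted p = 0.0169), both under the cutoff of 0.5 in size, where 25.0% of all genes had an adjusted p under 0.05. With all 12 libraries these values were -0.19 (adjusted p = 0.336) and -0.17 (adjusted p = 0.339). Btc was -0.69 in CBPWT mice (adjusted p = 0.00783) without the 4 libraries.

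Proliferation genes moved with p53 deletion in the same libraries. Of 15 proliferation genes, 14 were called higher in CBPWTp53ΔIEC vs. CBPWTp53-floxed (background 3.15%) and 15 in the average over CBP genotypes (background 3.50%). The median log2 fold changes were 1.92 and 1.71, and all 15 were fitted higher in both. In CBPAAp53ΔIEC vs. CBPAAp53-floxed 0 were called by edgeR (background 0.0274%) and 4 by DESeq2 (73 of 27142 genes). There 14 had an unadjusted p under 0.05, against 12.6% of all genes, and the median was 1.39. These counts also changed when 1 library was left out or the fit was altered. In CBPWT mice 0 were called without any 1 of the CBPWTp53-floxed replicates or CBPWTp53ΔIEC replicate 2 or 3, 5 without CBPAAp53-floxed replicate 3, 7 without CBPAAp53-floxed replicate 1, 1 with no filter on low counts and 0 with the replicate block. In CBPAA mice 13 were called without CBPAAp53ΔIEC replicate 3, and 14 without the 4 Lyz1-rich libraries. In the average between 2 (without CBPWTp53-floxed replicate 3) and 15 were called with 1 library left out. Their summed TPM was 183 to 272 in the 6 p53-floxed libraries, 325, 744 and 755 in CBPWTp53ΔIEC and 603, 586 and 225 in CBPAAp53ΔIEC replicates 1 to 3. The p53ΔIEC libraries with the lowest proliferation sums, CBPAAp53ΔIEC replicate 3 and CBPWTp53ΔIEC replicate 1, are those with the highest Erbb3, 255 and 191 TPM, and those with the highest summed TPM of small-intestinal and Paneth genes, 4440 and 9296. The part of either in the Erbb3 values was not tested. Btc was 2.90 TPM in CBPWTp53ΔIEC replicate 1, the lowest of its group, and 4.87 TPM in CBPAAp53ΔIEC replicate 3, the highest of its group. The plot of gene lists by library sets these sums above Erbb3 and Btc.

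**Figure D3:**
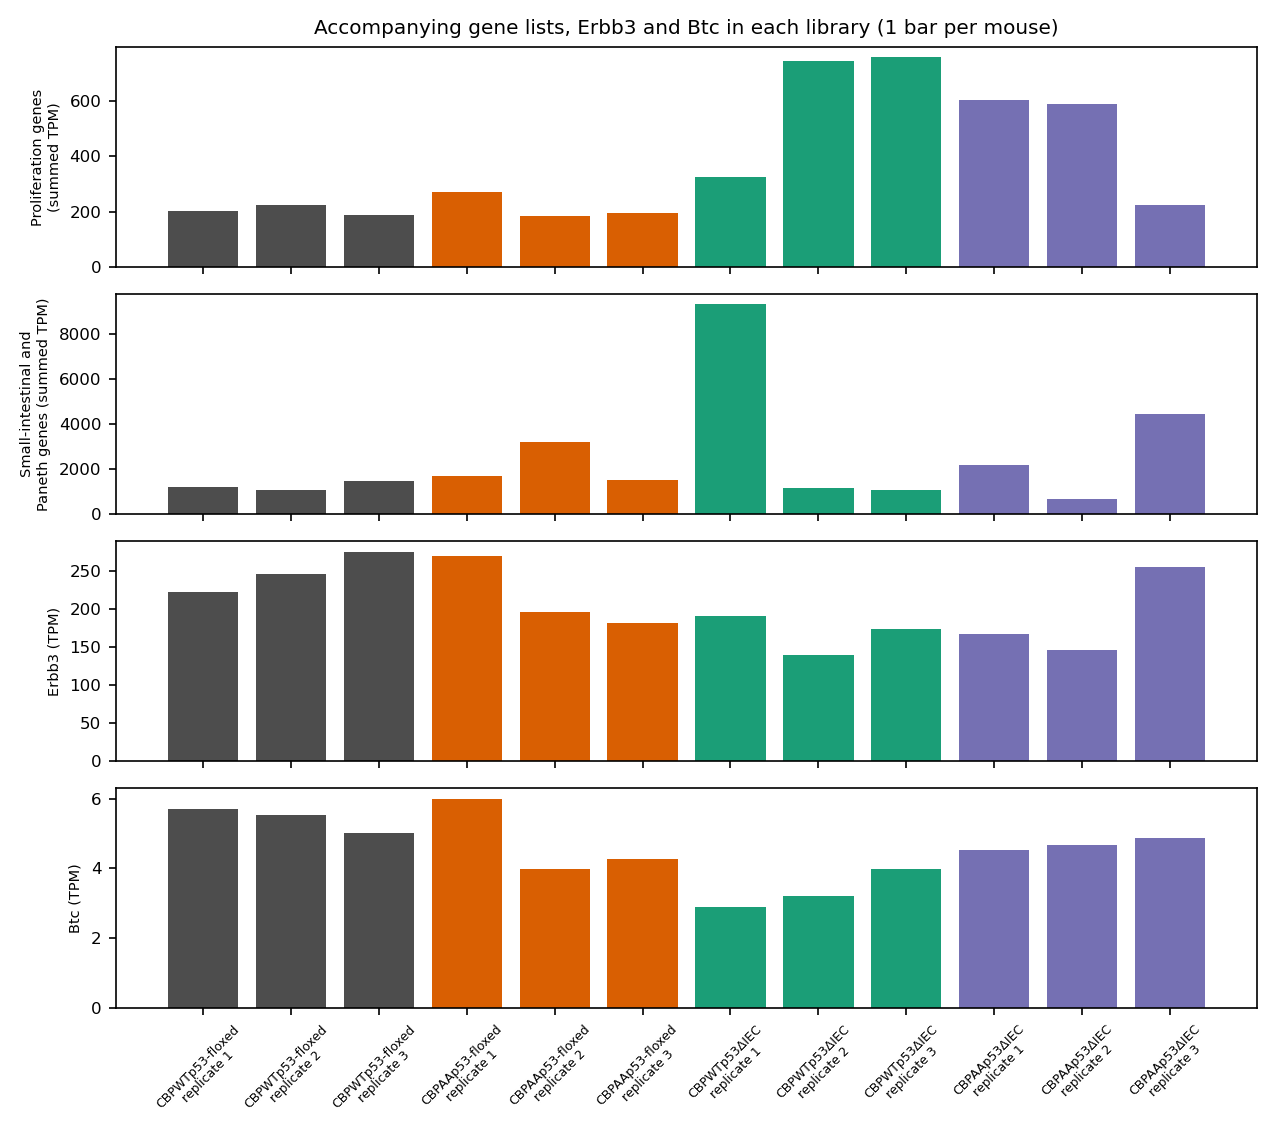
Bars from 0 give, for each of the 12 libraries, the summed TPM of 15 proliferation genes, the summed TPM of 10 small-intestinal and Paneth genes, and the TPM of Erbb3 and Btc, coloured by group. CBPWTp53ΔIEC replicate 1 and CBPAAp53ΔIEC replicate 3 have the tallest small-intestinal bars and the shortest proliferation bars of the p53ΔIEC libraries.

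Some members varied together from library to library. The log2 CPM of Erbb3 and Tgfa had a Pearson's r of 0.956 (permutation p = 7.0e-05) and a Spearman's rho of 0.860 (permutation p = 0.00060) over the 12 libraries. Erbb2 and Tgfa had r = 0.912 (permutation p = 5.0e-05) and rho = 0.832 (permutation p = 0.00146), and Erbb2 and Erbb3 had r = 0.880 (permutation p = 0.00022) and rho = 0.797 (permutation p = 0.00311). These were the 3 of 28 pairs of members with an adjusted p under 0.05, at 0.00098, 0.00098 and 0.00205 for r and 0.0168, 0.0204 and 0.0290 for rho. The permutations shuffled libraries over all 4 groups. By r among all genes tested, Tgfa had rank 6 for Erbb3 and rank 16 for Erbb2, and Erbb3 had rank 45 for Erbb2. How often gene pairs outside the family reach such an r was not tested. With the 2 libraries farthest from the median of the first gene left out, r was 0.912 for Erbb3 and Tgfa, 0.839 for Erbb2 and Tgfa and 0.754 for Erbb2 and Erbb3. With group means subtracted, r was 0.968, 0.885 and 0.866, and in the 8 libraries without the Lyz1-rich ones 0.966, 0.920 and 0.894, in the same order. Areg and Hbegf had r = 0.714 (permutation p = 0.00963, adjusted p = 0.0674) and rho = 0.671 (permutation p = 0.0210, adjusted p = 0.144). For that pair r was 0.492 without the 2 libraries farthest from the median of Areg, 0.553 with group means subtracted and 0.809 without the Lyz1-rich libraries. Egfr had r of -0.53 to 0.04 with the other 7 members, -0.36 with Erbb2 and -0.21 with Erbb3.

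**Figure D4:**
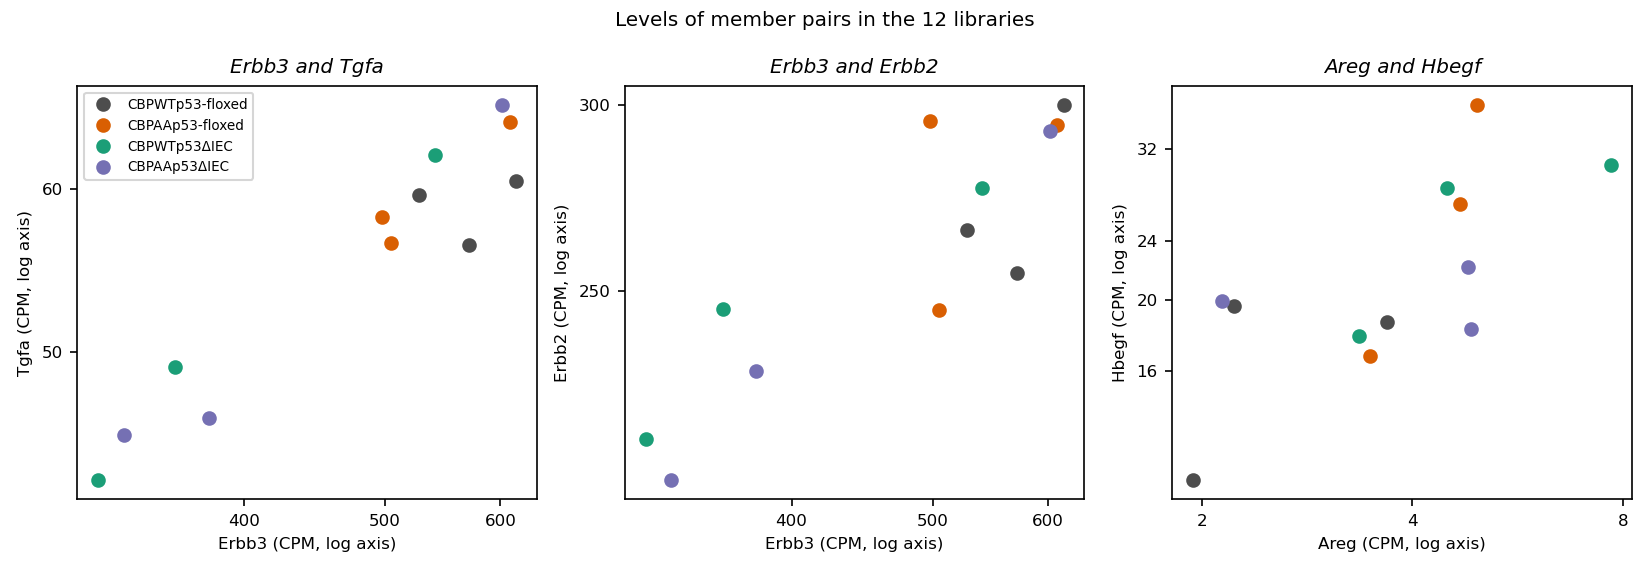
The panels plot CPM of Tgfa against Erbb3, of Erbb2 against Erbb3 and of Hbegf against Areg on log axes, 1 point per library coloured by group. Tgfa rises with Erbb3 across groups (r = 0.956), and Hbegf follows Areg less tightly (r = 0.714).

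The genes most like each member by r of log2 CPM over the 12 libraries are given as a description, with no p since they were chosen by r. Erbb3 ran closest to Ctdsp2 (r = 0.972), Ablim1 (r = 0.972) and Zmiz1 (r = 0.962), and Tgfa to Ltb4r2 (r = 0.982), Arhgef2 (r = 0.966) and Erbb3 itself (r = 0.956). Erbb2 ran with Mmp15 (r = 0.941) and Sema4a (r = 0.934), and Egfr with Mctp1 (r = 0.927), 6430548M08Rik (r = 0.920) and Mrs2 (r = 0.904). Among the ligands of the chromosome 5 cluster, Btc ran with Trib2 (r = 0.944), Bach2 (r = 0.942) and Fut11 (r = 0.936), Areg with Tnk2 (r = 0.908) and Tsfm (r = 0.896), and Ereg with Cyb5a (r = 0.925), Cyp24a1 (r = 0.914) and Pecam1 (r = 0.913). Hbegf ran with Myl12b (r = 0.944), Dusp5 (r = 0.910) and Acsf3 (r = 0.903). Dusp5 encodes a phosphatase that acts on ERK and is itself an ERK-induced gene. Of the 3 neighbouring ligands of this cluster that were tested, Areg and Ereg had r = 0.190, Areg and Btc r = -0.41 and Ereg and Btc r = -0.40.

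The other ligands of these receptors were low. Egf itself stood at 2.52 TPM over the 12 libraries and Nrg4, a neuregulin that binds ERBB4, at 0.447 TPM, whereas the other neuregulins Nrg1, Nrg2 and Nrg3 had 2, 5 and 0 reads in all. Nrg1 and Nrg2 encode the ligands of ERBB3. Egf was 3.24 ± 0.666 TPM in CBPWTp53-floxed and 1.96 ± 0.0971 TPM in CBPWTp53ΔIEC (SD, n = 3 each). Its log2 fold change was -0.68 (SE 0.19, 95% CI -1.08 to -0.28, adjusted p = 0.0610), which did not pass in edgeR but did in DESeq2 (adjusted p = 0.0167) and in edgeR without the 4 Lyz1-rich libraries (-0.78, adjusted p = 0.00375). Averaged over both CBP genotypes it was -0.48 (SE 0.13, adjusted p = 0.0530).

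Genes that process the ligands or restrain and carry the receptor signal were counted as 3 lists. Of 11 genes of ligand release and export (such as Adam10, Adam17, Rhbdf1 and Rhbdf2) 8 were tested, of 10 receptor inhibitors (such as Lrig1, Errfi1 and Cbl) 10, and of 25 genes of the cascade from adaptors to ERK, PI3K and STAT3 25. In each of the 7 contrasts 0 genes of these 3 lists were called by edgeR or by DESeq2. Over all genes, edgeR called 0 to 511 of 14610 and DESeq2 called 1 to 863 of 27142 in these contrasts. In CBPWTp53ΔIEC vs. CBPWTp53-floxed, 1, 2 and 4 of their genes had an unadjusted p under 0.05, against 20.9% of all genes, and their median log2 fold changes were -0.0046, -0.20 and -0.11. In the interaction 6 of the 25 cascade genes had one, against 10.3% of all genes. In CBPAAp53-floxed vs. CBPWTp53-floxed 3 of the 25 had one, against 8.04%. The other lists had 0 such genes in both. In the remaining contrasts each list had 0 to 2, against 2.57% to 21.9% of all genes. Adam10, a protease that releases Btc, stood at 54.1 TPM, Errfi1 at 58.0 TPM and Lrig1, a stem cell marker that binds and lowers ErbB receptors, at 51.1 TPM. Mapk3, which encodes ERK1, had the highest mean of the cascade at 632 TPM.

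Transcripts that ERK signalling is known to induce were read as a separate list of 12 genes, all tested. Etv4, a transcription factor, was the gene called, in the average over CBP genotypes (1 of 12, background 3.50%), and the median of the list there was 0.14. In that average 5 of the 12 had an unadjusted p under 0.05, against 21.9% of all genes. In each of the other contrasts 0 to 2 of the 12 had one, against 2.57% to 20.9% of all genes. Etv4 was 4.998, 7.03 and 6.66 TPM in CBPWTp53-floxed and 8.68, 6.95 and 6.04 TPM in CBPAAp53-floxed. It was 6.07, 13.4 and 28.2 TPM in CBPWTp53ΔIEC and 13.2, 19.2 and 8.67 TPM in CBPAAp53ΔIEC. Its lowest p53ΔIEC values were again in the libraries with low proliferation sums, CBPWTp53ΔIEC replicate 1 and CBPAAp53ΔIEC replicate 3, at 6.07 and 8.67 TPM. The fitted log2 fold change of Etv4 was 1.05 (SE 0.27, 95% CI 0.46 to 1.63, adjusted p = 0.0465), and its adjusted p rose to between 0.0780 and 0.116 when any 1 library other than those 2 was left out. It was 0.00525 without CBPWTp53ΔIEC replicate 1 and 0.0177 without CBPAAp53ΔIEC replicate 3. DESeq2 called Etv4 and Etv5 in this average, where it called 761 of 27142 genes. It also called Etv4 in CBPWTp53ΔIEC minus CBPWTp53-floxed, among 863 of 27142 genes. Of 14 immediate-early genes, 0 were called by edgeR in any of the 7 contrasts, in which it called 0 to 511 of 14610 genes. In each contrast 1 to 3 of them had an unadjusted p under 0.05, against 2.57% to 21.9% of all genes. In CBPAAp53-floxed minus CBPWTp53-floxed 12 of the 14 were fitted higher (median log2 fold change 0.23). In CBPAAp53ΔIEC minus CBPAAp53-floxed 0 were (median -0.27), and the median of all genes was 0.01 in both. In CBPWTp53ΔIEC minus CBPWTp53-floxed and in CBPAAp53ΔIEC minus CBPWTp53ΔIEC 6 of 14 were fitted higher (median -0.04 each). The part of these shifts in the Hbegf values was not tested. DESeq2 called Dusp1 in the p53ΔIEC average over CBP genotypes, among 761 of 27142 genes.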

How the data were processed

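RNA of colonic crypts of 12 mice was sequenced, and the authors deposited a single table with raw read counts per gene and library and with TPM, their counts scaled to gene length and library size. The same table holds log2 fold changes and p-values of 5 comparisons by the authors, which were not used. The submitters' processing notes name fastp 0.20.0, FastQC 0.11.9, HISAT2 2.1.0, SAMtools 1.9, featureCounts of Subread 2.0.1 and GRCm38, without settings. Reads that map to several genes or to both strands of overlapping genes may be counted or lost depending on those settings.

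Groups were taken from the sample titles, and all columns of libraries were used. Counts were tested with edgeR 4.0.16 in R 4.3.3 (filterByExpr with a minimum count of 10, TMM, a robust quasi-likelihood model of the 4 groups in all 12 libraries), with 7 contrasts and Benjamini-Hochberg adjustment over 14610 genes. CPM are scaled with TMM. Calls needed an adjusted p under 0.05 together with a log2 fold change over 0.5 in size, which is the cutoff of the study. Standard errors were derived from the F statistic. The scripts were tested on simulated data. Correlations between members used log2 CPM (prior count 2) and two-sided tests with 100000 permutations, adjusted over 28 pairs.

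Alternatives were DESeq2 1.42.0, DESeq2's size factors, no filter, at least 10 counts in every library, a block for replicate numbers, omission of each library in turn, edgeR on the 2 groups compared, and the adjusted p alone. Leaving out the libraries over 100 TPM of Lyz1 was chosen after seeing the data. Named genes were the 10 members, other ligands, pathway genes called in any contrast, the 3 genes most like each member (some are not reported here), Trp53 and Crebbp, and up to 3 of the highest genes of each accompanying list, whereas Lyz1, Ptprc, Pdgfrb, Vim, Dcn, Kit and pathway genes outside this rule were named after their values were seen. The members and lists were chosen with earlier results of these data known. Positions are from GENCODE for GRCm38 and promoter sequences from RefSeq. Samples are separate mice, 3 per group, and both this number and the depth limit the precision. Figures were drawn with matplotlib 3.10.9.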

Additional observations from a re-analysis of the deposited data

How the results depend on the processing

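Of 29 log2 fold changes recomputed in 537 alternative fits, 478 kept their direction and their side of the cutoff, 22 lost a call, 19 gained one and 18 reversed. The reversed ones had main values of at most 0.079 in size. Btc in CBPAAp53-floxed minus CBPWTp53-floxed (-0.079) ran from -0.188 to 0.0207 with 1 library left out and was 0.0291 without the Lyz1-rich libraries. For CBPAA minus CBPWT averaged over both p53 states, leaving out 1 library gave -0.0700 to 0.0577 for Erbb2, -0.142 to 0.141 for Erbb3 and -0.0707 to 0.106 for Tgfa, and leaving out the Lyz1-rich libraries gave -0.0866 for Erbb2 and -0.0355 for Erbb3. The cause was not tested.

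The number of members called in CBPWTp53ΔIEC minus CBPWTp53-floxed was 1, among 460 of 14610 genes. It was 0 with no filter on low counts (415 of 27142 genes) and 0 with the replicate block (32 of 14610). With 1 library left out it was between 0 and 2, where 1 to 906 of all genes were called. In the p53ΔIEC average over CBP genotypes it was 0, among 511 of 14610 genes. There it was between 0 and 1 with 1 library left out, where 105 to 1073 genes were called. In CBPAAp53ΔIEC minus CBPAAp53-floxed it was 0 (4 of 14610 genes), also with 1 library left out (1 to 326 genes). The fit without the Lyz1-rich libraries, which keeps 1 CBPAAp53ΔIEC library, is given above with its shares. In the other 4 contrasts the number of members called was 0 under every alternative run, and DESeq2 gave 1 and 0 as the main test did.

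Replicate numbers recur in each group, and same-numbered libraries showed no shared direction of deviation over the pairs. The correlation of their deviations from the group means ran from -0.53 to 0.55 over 12 pairs, and the numbers were not used as pairs. Both ends were between CBPWTp53ΔIEC and CBPAAp53ΔIEC, at 0.55 for replicate 2 and -0.53 for replicate 3. With the replicate block, the log2 fold change of Btc in CBPWTp53ΔIEC minus CBPWTp53-floxed was -0.66 (adjusted p = 0.0780), and 32 of all genes were called in place of 460. That of Etv4 averaged over CBP genotypes was 1.02 (adjusted p = 0.0773), and it was 1.03 (adjusted p = 0.156) with no filter. Low reads limit Ereg (10 to 42 per library), Areg (31 to 115) and Btc (66 to 164), and leave Epgn and Erbb4 without a test.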
